A study of Mus musculus with 3 samples.

Results

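Germline genes are genes whose products act in germ cells and which are kept silent in somatic tissue, many of them by methylation of CpG dinucleotides at their promoters. A list of 41 such mouse genes was examined across 3 cultures of pluripotent cells. Members were found by matching the listed names to the gene symbols of the array's probe table, and 38 of the 41 had at least 1 probe there, with 47 of the 25697 probes in all. No probe carried the names Tdrd5, Tdrd9 or Syce1, so these 3 genes were not analysed. DNA methylation itself was not measured, and the list is described here by RNA signals alone.

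The study set epiblast stem cells that had been turned back towards the naive state beside their parent line and beside embryonic stem cells. RNA from 1 culture of each was hybridised to 1 Illumina bead array. The reverted culture, E3R, came from the E3 line and has its hybrid genetic background. Like CGR8 it was grown on gelatin, in a medium with 1 µM PD0325901, an inhibitor of MEK, 3 µM CHIR99021, an inhibitor of GSK3, and 1000 U of leukaemia inhibitory factor (LIF). The unreverted E3 epiblast stem cells grew on CF1 mouse embryonic fibroblast feeders with 5 ng/ml FGF2 and were lifted off with collagenase IV, so medium, feeder layer and harvest differ together from those of the other cultures. The embryonic stem cells were of the CGR8 line, whose strain the labels do not give. All 3 cultures were labelled untreated, and each stands for 1 cell line only.

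In the germline and in the early embryo DNA methylation is erased and then laid down again. Naive embryonic stem cells correspond to the hypomethylated blastocyst epiblast and epiblast stem cells to the later, heavily methylated epiblast. Several silencing systems act on germline promoters, among them the methyltransferases DNMT3A, DNMT3B and DNMT1 and a Polycomb complex that contains E2F6, MGA, MAX and PCGF6 and recognises E-box and E2F motifs. Members are described below in the order of their roles, from regulators of germ cell fate through the piRNA pathway, which silences transposons with small RNAs, to meiotic chromosomes, testis structure and the X-linked Rhox and Xlr genes.

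With 1 array for each culture no test across samples exists, and every difference below is a size without a replicate check. Detection required that the p-value of a probe, taken against its array's negative controls, be under 0.01. Raw signals are in array units and still include background. The medians over all probes were 85.3 for E3R, 89.2 for E3 and 92.9 for CGR8, so a value near these is background. Log2 differences were taken from background-corrected, quantile-normalized signals. Where the dimmer culture did not detect a probe, the difference is a lower bound, written as "at least". Bead standard errors cover the scatter among beads that carry the same probe, and no biological spread. The cultures carried marker genes that fit their labels: the naive genes Esrrb and Zfp42 had log2 signals of 11.85 and 11.23 in E3R, 5.42 and 5.11 in E3 and 11.77 and 11.68 in CGR8, while Fgf5, a gene of the primed epiblast, was detected in E3 alone.

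In reverted cells 19 of the 38 germline genes were detected, against 7 in E3 epiblast stem cells, and 17 were detected in CGR8 embryonic stem cells. These shares of 50%, 18.4% and 44.7% stood beside 42.0%, 44.9% and 41.5% of all 16593 genes on the E3R, E3 and CGR8 arrays. Detection of germline genes was thus rarer than that of all genes on the E3 array. Counted by probe, 22 of 47 were detected in E3R, 8 in E3 and 20 in CGR8. In all, 21 germline genes passed detection somewhere and 17 nowhere.

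**Figure D1:**
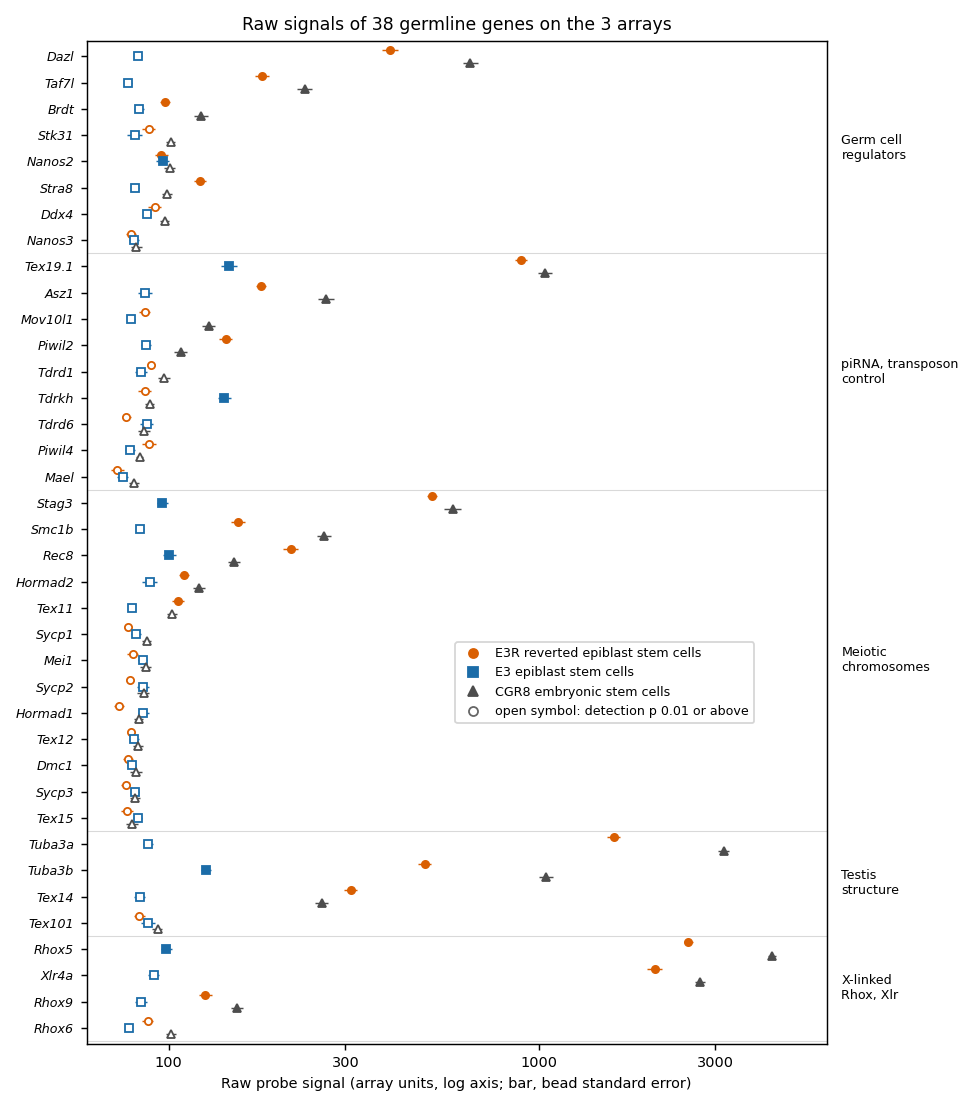
Raw signals of the 38 germline genes on a log axis in array units, grouped by role; circles are E3R, squares E3 and triangles CGR8, with bead standard errors as bars, and open symbols were not detected. Squares lie between 75.1 and 145.7, whereas circles and triangles of Rhox5, Xlr4a, Tuba3a and Tex19.1 reach 896 or more.

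The comparison of reverted with unreverted cells of the same line asked which germline genes had more or less RNA after reversion. In E3R cells 15 of the 20 germline genes with a value were higher by 2-fold or more, where 12.7% of all 7726 genes with a value were. Only Tdrkh was at least 2-fold lower, where 12.4% of all genes were. The median log2 difference of the 20 genes was 2.14, against −0.02 over all genes with a value. Of these 20 values 14 were bounds, and a gene detected in E3R alone could only count as higher, so that the count and median describe these genes and do not stand for all 38. Over the 6 genes detected in both cultures the median log2 difference was 3.33, and 5 of the 6 were at least 2-fold higher in E3R. As each culture is a bulk sample, a change in the share of cells that express a gene and a change in RNA per cell cannot be told apart.

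**Figure D2:**
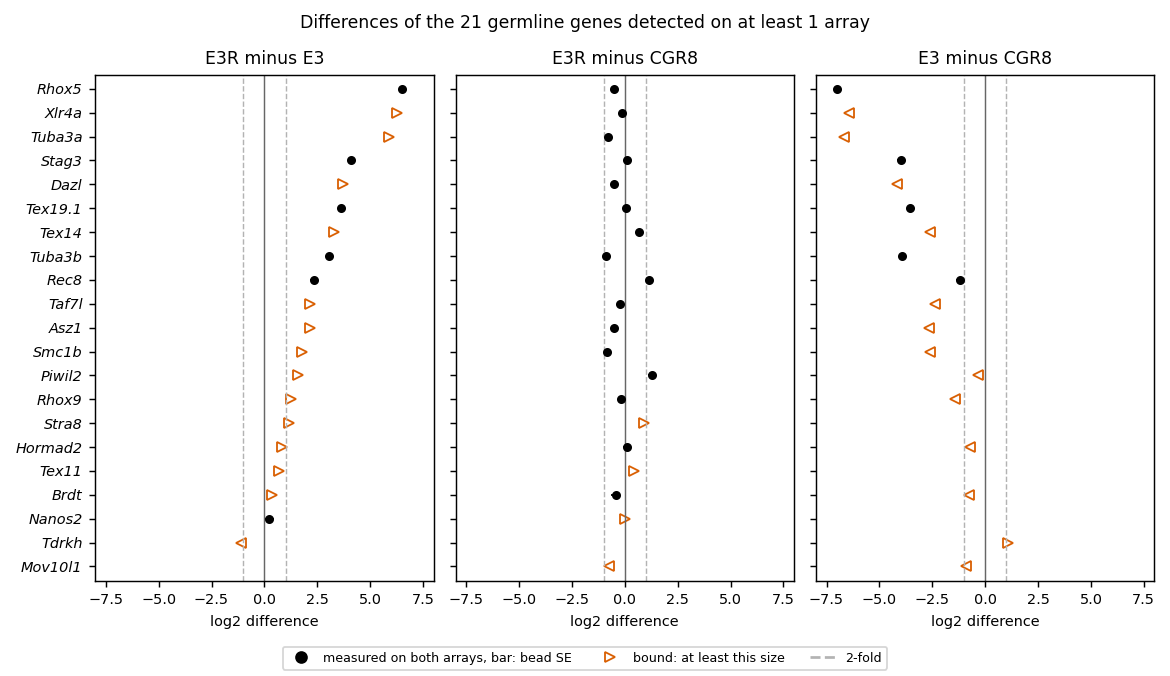
Log2 differences of the 21 germline genes detected on at least 1 array, for E3R minus E3, E3R minus CGR8 and E3 minus CGR8; filled circles were measured in both cultures with bead standard errors, open triangles are bounds and dashed lines mark 2-fold. The left panel runs from −1.11 for Tdrkh to 6.49 for Rhox5, and the middle panel from −0.89 for Tuba3b to 1.28 for Piwil2.

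The regulators of germ cell fate include Dazl, which encodes an RNA-binding protein that germ cells need for their development. Its raw signal was 397 in E3R cells (bead standard error 19.8), 82.7 in E3 cells and 654 in CGR8 cells (30.5). Dazl was not detected in E3 and was at least 13.0-fold higher in E3R (log2 difference 3.70), although 2.22 on the log2 scale without background correction. Taf7l, a subunit of the general transcription machinery that germ cells use, gave 179 in E3R, 77.7 in E3 and 233 in CGR8. It was at least 4.42-fold higher in E3R than in E3.

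Stra8, induced by retinoic acid when germ cells enter meiosis, was detected in E3R alone. Its signals were 121 in E3R, 81.0 in E3 and 98.9 in CGR8, so that it was at least 2.20-fold higher in E3R than in E3. Brdt, a testis protein that reads acetylated histones, lay just above background in E3R at 97.6 and in CGR8 at 122.5, and its signal in E3 was 83.2. A second probe for Brdt was detected on no array. Nanos2, an RNA-binding regulator of male germ cells, was at the detection limit throughout, with 95.5 in E3R, 96.2 in E3 and 100.7 in CGR8. Its difference between E3R and E3 was 0.22 on the log2 scale, with a bead standard error of 0.25. Ddx4, the Vasa RNA helicase that marks germ cells, was not detected on any array by any of its 3 probes, and the same held for Nanos3, which primordial germ cells need for survival, and Stk31. By count 3 of 5 regulators with a value were higher in E3R by 2-fold or more and 0 lower, where 12.7% and 12.4% of all genes were. Of these 5 values 4 were bounds of genes not detected in E3, which could only count as higher.

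The transposon control genes were led by Tex19.1, which restrains retrotransposons in germ cells and placenta. It was well detected in every culture, with raw signals of 896 in E3R (bead standard error 34.0), 145.7 in E3 (7.14) and 1038 in CGR8 (45.6). Tex19.1 was 12.2-fold higher in E3R than in E3, a log2 difference of 3.60 with a bead standard error of 0.14. Asz1 encodes a protein of the mitochondrial surface that takes part in piRNA biogenesis. Signals of Asz1 were 178 in E3R, 86.3 in E3 and 266 in CGR8, at least 4.39-fold higher in E3R than in E3.

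Piwil2, a PIWI protein that binds piRNAs, was higher in E3R than in either of the other cultures. Its signals were 143 in E3R, 86.7 in E3 and 107.7 in CGR8, and it was at least 3.04-fold higher in E3R than in E3. Mov10l1, the helicase that feeds precursor RNAs into the pathway, was detected only in CGR8, at 128, while it gave 86.0 in E3R and 78.9 in E3. Tdrkh ran the other way. This Tudor protein, which takes part in trimming piRNAs, was detected in E3 cells alone, with 86.1 in E3R, 141 in E3 and 88.7 in CGR8. Tdrkh was at least 2.16-fold lower in E3R than in E3, but this was under 2-fold if background was left in (log2 −0.48) or if the model's offset was 50 (−0.66). Mael, Tdrd1, Tdrd6 and Piwil4, which act in the same pathway, were detected on no array.

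Of the fibroblast genes, listed to mark the feeder layer, more were detected in the E3 culture, in which Tdrkh was highest, than in the others. Of 16 such genes on the array, 4 were detected in E3R, 9 in E3 and 4 in CGR8, and their raw signals summed to 1847 in E3R, 3541 in E3 and 2522 in CGR8. Of 9 with a value, 5 were lower by 2-fold or more in E3R against E3 and 0 were higher. Over all genes 12.4% were lower and 12.7% higher. Like Tdrkh, 5 fibroblast genes were detected in E3 alone. Among them Thy1, a surface protein gene, gave 87.0 in E3R, 286 in E3 and 86.7 in CGR8 and was at least 6.38-fold lower in E3R than in E3. Ccn1 was at least 4.84-fold lower in E3R, Bgn at least 3.26-fold, Dcn at least 2.57-fold and Fbln2 at least 1.73-fold. Without background correction Bgn and Dcn were under 2-fold, at −0.81 and −0.61 on the log2 scale. At any size, 7 of the 9 with a value were lower in E3R than in E3. The 2 higher ones were Col5a1 (1.45-fold) and Serpinf1 (1.27-fold). Col5a1 was brightest in CGR8, at 312, and Pdgfra was detected in CGR8 alone, at 105.7. The collagen genes Col1a1, Col1a2 and Col3a1 were detected on no array. The part of feeder RNA in the value of Tdrkh was not tested.

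Of the meiotic genes on the list, the cohesin subunits stood out from the synaptonemal complex. Cohesin holds sister chromatids together, and Stag3, Rec8 and Smc1b encode its meiotic forms. Stag3 had 515 in E3R cells (bead standard error 17.1), 96.1 in E3 cells (3.43) and 585 in CGR8 cells (30.6). It was 17.3-fold higher in E3R than in E3, with a log2 difference of 4.12 and a bead standard error of 0.16. Its E3 signal was barely above the detection limit, as the brightest undetected probe on that array had 95.5.

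Rec8 gave 214 in E3R, 100.2 in E3 and 150.1 in CGR8, and was 5.00-fold higher in E3R than in E3 (log2 2.32, bead standard error 0.18). The E3 signal of Rec8 was also close to the detection limit. Smc1b gave 154 in E3R, 83.8 in E3 and 263 in CGR8, at least 3.46-fold higher in E3R than in E3, but under 2-fold without background correction (log2 0.81). All 3 cohesin genes were thus higher in E3R and in CGR8 than in E3. Hormad2, a protein of the chromosome axis, was detected in E3R at 109.9 and in CGR8 at 120.7, but not in E3 at 88.7. Tex11, an X-linked gene needed for crossovers, passed detection in E3R alone, with 105.9 in E3R, 79.3 in E3 and 102.0 in CGR8.

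Sycp1, Sycp2 and Sycp3, which build the synaptonemal complex that joins paired chromosomes, Tex12 of its central element, Hormad1 of the axis, the recombinase gene Dmc1, Mei1 and Tex15 were detected on no array. Over all 17 genes that no array detected, raw signals ran from 72.5 to 91.7 in E3R, from 75.1 to 87.9 in E3 and from 79.5 to 101.5 in CGR8. Signals of this size show only that RNA was not measurable, not that it was absent.

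Tuba3a and Tuba3b encode testis forms of alpha-tubulin. The brightest probe for Tuba3a had 1592 in E3R cells (bead standard error 66.7), 87.9 in E3 cells and 3158 in CGR8 cells (106.2). By this probe Tuba3a was at least 58.9-fold higher in E3R than in E3 (log2 5.88, but 4.23 without background correction). Its other 3 probes gave 18.2-fold, at least 37.1-fold and at least 58.1-fold, and the first of these was also the only one detected in E3, at 110.9. Tuba3b had 492 in E3R, 126 in E3 and 1047 in CGR8, and was 8.31-fold higher in E3R than in E3 (log2 3.05, bead standard error 0.12). The 2 genes are nearly identical, so a probe may read both, and their separate levels are uncertain.

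Tex14, which keeps the bridges between germ cells open, gave 310 in E3R (bead standard error 12.6), 83.4 in E3 and 259 in CGR8 (10.1). It was at least 9.63-fold higher in E3R than in E3. Tex101, a protein anchored to the germ cell surface, was detected in none of the cultures.

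The X-linked Rhox5, a homeobox gene of the reproductive tract and the early embryo, had a raw signal of 2535 in E3R cells (bead standard error 70.7), 98.6 in E3 cells (3.44) and 4266 in CGR8 cells (108.1). Rhox5 was 90.0-fold higher in E3R than in E3, with a log2 difference of 6.49 and a bead standard error of 0.15 (4.90 without background correction). Its E3 signal was close to the 95.5 of the brightest undetected probe on that array, so this fold rests on a value near the detection limit. Xlr4a, of a lymphocyte-regulated X-linked family, had 2057 in E3R, 91.1 in E3 and 2729 in CGR8 and was at least 78.1-fold higher in E3R. Because Xlr4b and Xlr4c are close copies of it, the gene behind this signal is uncertain. Probes named for these copies were far dimmer. That of Xlr4b was detected on no array, with 82.9 in E3R, 77.8 in E3 and 84.7 in CGR8. That of Xlr4c was detected in CGR8 alone, at 110.5, with 91.8 in E3R and 81.1 in E3. Which copies each probe reads was not tested. Rhox9 gave 126 in E3R, 84.2 in E3 and 153 in CGR8, at least 2.37-fold higher in E3R, and its relative Rhox6 was detected nowhere.

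Germline genes that were higher in reverted cells lay both on the X chromosome and on autosomes. Of the 5 X-linked germline genes with a value, Taf7l and Tex11 among them, E3R was higher than E3 by 2-fold or more in 4. Of the 15 autosomal ones with a value, 11 were higher and 1 was lower by 2-fold or more. Among these values 4 on the X chromosome and 10 on autosomes were bounds. A gene detected in E3R alone could only count as higher, so these shares depend on which genes had a value. Of all germline genes on the array, 4 of 6 X-linked and 11 of 32 autosomal ones were at least 2-fold higher in E3R. Detected in E3R were 5 of the 6 (83.3%) and 14 of the 32 (43.75%), where 42.0% of all genes were. A part of chromosomal location in these values was not tested. X-linked genes outside the list had a median log2 difference of −0.31 over 260 genes, of which 24 were higher and 56 lower by 2-fold or more. Xist, the RNA of X inactivation, was detected on none of the arrays, and the Y-linked Eif2s3y was detected on all of them, with 366 in E3R, 420 in E3 and 447 in CGR8. Of the other Y-linked genes, Uty had 105.6 in E3R, 90.2 in E3 and 110.8 in CGR8, and Kdm5d had 82.8 in E3R, 96.0 in E3 and 93.0 in CGR8.

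How far these values rest on the background model can be seen from the bounds. Without background correction Stra8 (log2 0.45), Piwil2 (0.70), Rhox9 (0.51) and Smc1b were under 2-fold in E3R against E3, which leaves 11 genes at least 2-fold higher. With an offset of 50, Stra8, Piwil2 and Rhox9 were under 2-fold and 12 genes remained past it. Rhox5, Xlr4a, Tuba3a, Stag3, Dazl, Tex19.1, Tex14, Tuba3b, Rec8, Taf7l and Asz1 were at least 2-fold higher under every alternative that gave them a value.

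**Figure D3:**
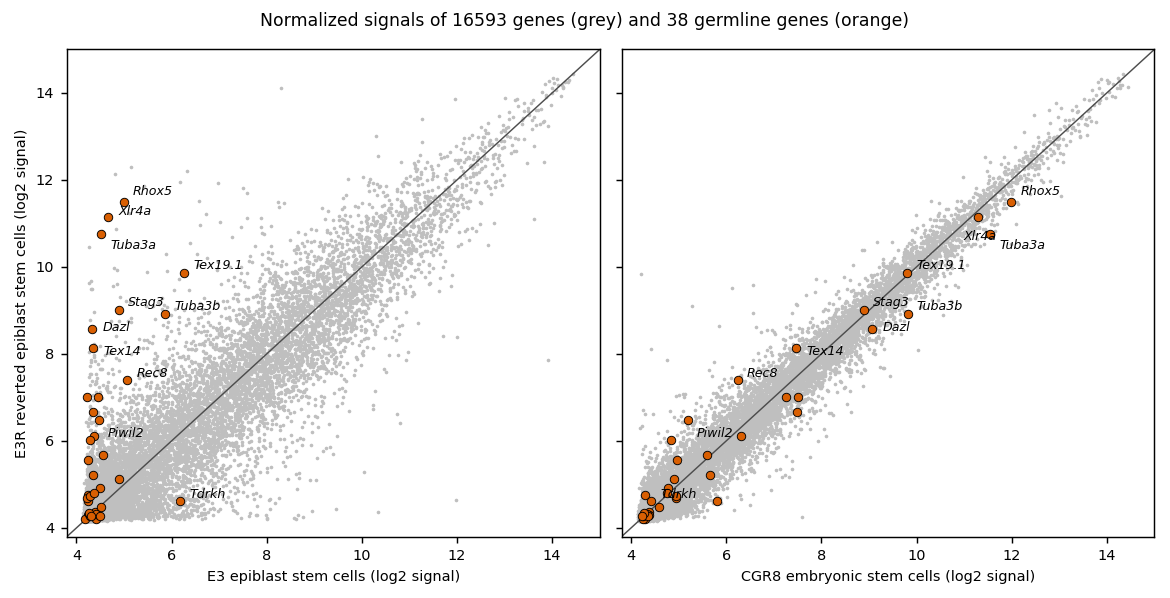
Normalized log2 signals of 16593 genes in grey and of the 38 germline genes in orange, with E3R on the vertical axis against E3 (left) and CGR8 (right); the line marks equal signal. On the left Rhox5, Xlr4a and Tuba3a stand at 11.48, 11.16 and 10.75 in E3R against 4.99, 4.66 and 4.52 in E3, while on the right the same genes stand at 11.99, 11.29 and 11.54 in CGR8.

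The second comparison set reverted cells against CGR8 embryonic stem cells in the same medium. In E3R 2 of the 20 germline genes with a value were higher by 2-fold or more, where 1.81% of all 7286 genes were, and 0 were at least 2-fold lower, where 1.54% of all genes were. The median log2 difference was −0.16, against 0.01 over all genes. Within 2-fold lay 18 of the 20 values, of which 4 are bounds without an upper limit, and 7042 of the 7286 values of all genes. Among the 16 germline genes detected in both cultures, 10 were lower and 6 higher in E3R.

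Rhox5 was 1.42-fold lower in E3R than in CGR8 (log2 −0.51, bead standard error 0.06), Tuba3a 1.74-fold, Tuba3b 1.85-fold and Smc1b 1.78-fold lower. Dazl was 1.40-fold lower, Asz1 1.42-fold and Brdt 1.35-fold, while Taf7l was 1.18-fold, Rhox9 1.14-fold and Xlr4a 1.10-fold lower. Of the genes detected in both cultures Stag3, Tex19.1 and Hormad2 differed least, at 1.09-fold, 1.05-fold and 1.06-fold higher in E3R, and all 3 turned slightly lower under at least 1 alternative. Tex14 was 1.60-fold higher in E3R (log2 0.67, bead standard error 0.11). Stra8, detected in E3R alone, was at least 1.87-fold higher there, and Mov10l1, detected in CGR8 alone, was at least 1.66-fold lower in E3R. With scaling to a common median in place of quantile normalization Tuba3b passed 2-fold, at −1.08 on the log2 scale.

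The 2 germline genes at least 2-fold higher in E3R than in CGR8 were Piwil2 and Rec8. Piwil2 was 2.44-fold higher (log2 1.28, bead standard error 0.20) and Rec8 2.21-fold (1.14, bead standard error 0.13). Without background correction both were under 2-fold, at 0.59 and 0.72 on the log2 scale, and likewise with an offset of 50, at 0.80 and 0.87. Scaling to a common median also took Rec8 under 2-fold. Both genes lie on chromosome 14, in a run of neighbours from Armh4 to Med4 that was chosen after its values on these arrays had been seen. Among other genes of that run, 23 of 103 were at least 2-fold higher in E3R than in CGR8 and 0 were lower, with a median log2 difference of 0.56. On the rest of chromosome 14, 5 of 131 genes were higher and 6 lower, with a median of 0.01. Since the run was chosen with its values known, this contrast follows in part from the choice. The part of that run in the values of Piwil2 and Rec8 was not tested.

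**Figure D4:**
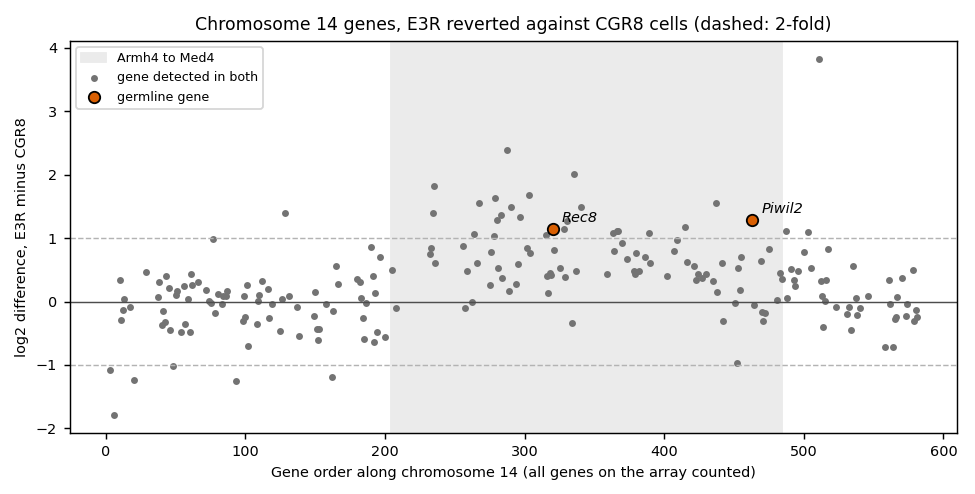
Log2 differences of E3R minus CGR8 for genes of chromosome 14 detected in both cultures, in gene order; the shaded stretch runs from Armh4 to Med4, dashed lines mark 2-fold and orange points are germline genes. Rec8 at 1.14 and Piwil2 at 1.28 lie inside the stretch, whose 88 other genes detected in both cultures have a median of 0.60.

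The third comparison set E3 epiblast stem cells against CGR8 embryonic stem cells, 2 lines grown in different media. It uses the same arrays as the comparisons above, so its values are given side by side with theirs and are not independent of them. In E3 13 of the 18 germline genes with a value were lower by 2-fold or more, where 13.4% of all 7698 genes were, and Tdrkh alone was at least 2-fold higher, where 13.9% were. Of these 18 values 13 were bounds, and a gene detected in CGR8 alone could only count as lower, so the count does not stand for all 38. The 5 genes detected in both cultures were all at least 2-fold lower in E3. Rhox5 was 128-fold lower in E3 (log2 −7.00, bead standard error 0.15), Stag3 15.97-fold, Tuba3b 15.4-fold and Tex19.1 11.6-fold lower. The E3 signals of Rhox5 and Stag3 were close to the detection limit. Bounds were at least 102-fold for Tuba3a, at least 85.8-fold for Xlr4a and at least 18.2-fold for Dazl. They rest on the background model: on the log2 scale Tuba3a was −6.68, Xlr4a −6.42 and Dazl −4.19, against −5.00, −4.75 and −2.65 without background correction, and Rhox5 was −5.40 without it. Rec8 was 2.27-fold lower in E3 than in CGR8 (log2 −1.18, but −0.51 without background correction), although the other genes of its chromosome 14 run had a median of 0.61 in this comparison. Piwil2 was at least 1.25-fold lower.

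Since the regulators of these genes act through their promoters, the sequence from 250 bases before to 50 bases after the start was examined for the 35 of 41 genes that RefSeq's promoter table for GRCm38.p6 holds, with 40 entries. No entry was given for Tdrd6, Tex11, Tex15, Piwil2, Rhox6 and Rhox9. Shown first, to set the letters beside the signals, are the 5 genes with the largest differences between E3R and E3, measured values and bounds ranked as one, then 3 genes that no array detected. The order rests on the background model, since without correction Tex19.1, at 2.80 on the log2 scale, passed both Stag3 at 2.60 and Dazl at 2.22. Each runs 5′ to 3′ along the gene's strand, and capitals mark CpG dinucleotides, the sites that DNA methyltransferases act on.
Rhox5, chrX:37754358-37754657, plus strand: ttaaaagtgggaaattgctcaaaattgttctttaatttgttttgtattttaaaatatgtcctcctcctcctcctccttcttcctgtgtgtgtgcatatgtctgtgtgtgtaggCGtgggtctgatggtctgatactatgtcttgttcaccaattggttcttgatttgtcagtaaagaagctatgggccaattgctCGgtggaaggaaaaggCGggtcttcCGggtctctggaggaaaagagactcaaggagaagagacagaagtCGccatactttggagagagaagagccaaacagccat
Xlr4a, chrX:73082458-73082757, minus strand: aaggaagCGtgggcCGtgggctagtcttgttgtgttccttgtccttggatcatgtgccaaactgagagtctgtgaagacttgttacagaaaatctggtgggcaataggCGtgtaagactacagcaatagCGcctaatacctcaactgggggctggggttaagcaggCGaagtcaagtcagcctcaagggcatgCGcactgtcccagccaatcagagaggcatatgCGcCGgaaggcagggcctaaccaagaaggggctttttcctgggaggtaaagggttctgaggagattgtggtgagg
Tuba3a, chr6:125286032-125286331, minus strand: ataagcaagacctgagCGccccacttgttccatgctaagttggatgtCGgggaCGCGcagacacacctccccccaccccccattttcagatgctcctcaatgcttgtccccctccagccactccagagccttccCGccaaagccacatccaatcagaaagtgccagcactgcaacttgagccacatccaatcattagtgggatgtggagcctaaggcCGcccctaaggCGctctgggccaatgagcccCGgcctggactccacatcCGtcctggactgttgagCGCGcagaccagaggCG
Stag3, chr5:138280259-138280558, plus strand: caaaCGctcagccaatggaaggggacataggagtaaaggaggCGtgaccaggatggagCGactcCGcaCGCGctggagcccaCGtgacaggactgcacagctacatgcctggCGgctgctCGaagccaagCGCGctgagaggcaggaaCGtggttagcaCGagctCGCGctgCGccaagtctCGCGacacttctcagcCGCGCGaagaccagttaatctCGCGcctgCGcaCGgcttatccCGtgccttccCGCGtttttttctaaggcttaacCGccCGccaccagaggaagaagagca
Dazl, chr17:50293571-50293870, minus strand: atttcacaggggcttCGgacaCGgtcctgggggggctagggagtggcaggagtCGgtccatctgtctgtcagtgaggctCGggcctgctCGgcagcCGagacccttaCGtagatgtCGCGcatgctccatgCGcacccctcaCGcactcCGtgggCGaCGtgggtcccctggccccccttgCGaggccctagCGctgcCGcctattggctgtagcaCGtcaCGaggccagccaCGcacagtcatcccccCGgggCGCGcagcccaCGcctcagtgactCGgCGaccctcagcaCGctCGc
Ddx4, chr13:112652261-112652560, minus strand: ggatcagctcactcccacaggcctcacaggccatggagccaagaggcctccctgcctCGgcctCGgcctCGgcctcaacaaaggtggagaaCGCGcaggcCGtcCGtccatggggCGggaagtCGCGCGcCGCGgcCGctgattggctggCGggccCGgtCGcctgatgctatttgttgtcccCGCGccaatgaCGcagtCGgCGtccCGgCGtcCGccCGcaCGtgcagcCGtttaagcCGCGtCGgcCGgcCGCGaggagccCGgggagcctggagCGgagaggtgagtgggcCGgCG
Mael, chr1:166238695-166238994, minus strand: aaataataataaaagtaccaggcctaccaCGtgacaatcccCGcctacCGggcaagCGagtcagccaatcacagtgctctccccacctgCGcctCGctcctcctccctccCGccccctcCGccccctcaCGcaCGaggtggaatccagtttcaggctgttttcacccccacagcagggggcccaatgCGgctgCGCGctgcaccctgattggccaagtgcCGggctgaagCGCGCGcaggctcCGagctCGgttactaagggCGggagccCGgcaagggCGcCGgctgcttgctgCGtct
Tex101, chr7:24672001-24672300, minus strand: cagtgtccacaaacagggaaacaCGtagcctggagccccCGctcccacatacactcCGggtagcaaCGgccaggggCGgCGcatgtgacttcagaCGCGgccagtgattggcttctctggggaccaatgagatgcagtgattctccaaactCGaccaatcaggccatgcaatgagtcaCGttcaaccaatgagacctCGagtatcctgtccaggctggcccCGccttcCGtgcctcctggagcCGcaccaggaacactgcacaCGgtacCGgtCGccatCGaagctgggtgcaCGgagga

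The promoters differed widely in CpG content. Rhox5 had 5 CpGs in 300 bases, Xlr4a 8 and Tuba3a 12, although these 3 genes had the largest differences between E3R and E3. Stag3 had 30 and Dazl 28. Ddx4, detected nowhere, had 38 CpGs, and Mael and Tex101 had 24 and 19. The ratio of observed to expected CpGs, which corrects for base content, was 0.36 for Rhox5, 0.40 for Xlr4a, 0.47 for Tuba3a, 1.06 for Stag3 and 0.80 for Dazl.

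Over all 40 promoters of germline genes the median ratio was 0.69, against 0.38 over the 32851 promoters of the table. The 18 promoters of genes detected on at least 1 array had a median of 0.68, and the 19 promoters of genes detected on none had 0.71, so CpG density did not part detected from undetected members. Nanos2 had no CpG in its window.

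The letters CACGTG, an E-box, read the same on both strands and are bound by the MGA and MAX proteins. They were found in the promoters of 13 of 35 germline genes (37.1%), against 8.09% of all 27025 genes in the table. Of genes detected on no array 8 of 14 held them, among them Ddx4 at position −29 from the start, Mael at −223, Sycp1, Sycp3, Hormad1 and Tex12. Of genes detected on at least 1 array 4 of 18 did, namely Stag3 at −170, Brdt, Mov10l1 and Taf7l. Among promoters with a ratio of at least 0.6, 11.3% of all and 15 of 25 from germline genes held the E-box.

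The letters GCGGGA, or TCCCGC on the opposite strand, are part of sites for E2F proteins, and can share their outermost letter with an E-box. They were found in 15 of 35 germline genes (42.9%) and in 22.1% of all genes, with Tuba3a at −119, Stag3 at −2 and Ddx4 at −136 among them. Among promoters with a ratio of at least 0.6 the shares were closer, at 52% of those of germline genes and 43.1% of all. Of genes detected on at least 1 array 7 of 18 held the letters, and of genes detected on none 7 of 14 did. Both motifs together occurred in 8 of 40 germline promoters (20%) and in 1.99% of all promoters. A match is a description of letters in this window and shows no binding.

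**Figure D5:**
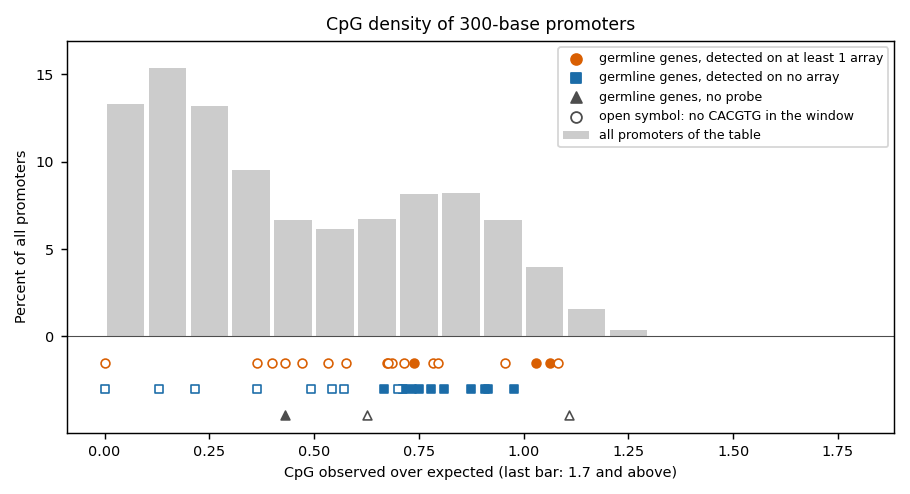
Percent of all 32851 promoters by their ratio of observed to expected CpGs (grey bars) and the same ratio for 40 promoters of germline genes (symbols below the axis, by whether the gene was detected); filled symbols hold the letters CACGTG. Of the 16 filled symbols 15 lie at ratios of at least 0.6, and Rhox5, Xlr4a and Tuba3a lie at 0.36, 0.40 and 0.47.

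Genes of the silencing machinery were looked at beside the members. Of 23 on the array, 17 were detected in E3R, 16 in E3 and 18 in CGR8. In E3R against E3, 3 of 17 with a value were higher and 2 lower by 2-fold or more. Over all genes 12.7% were higher and 12.4% lower, so these counts lie near those shares. The median log2 difference of the 17 was 0.02. Dnmt3l, a cofactor of new methylation, had raw signals of 3572 in E3R, 141 in E3 and 6465 in CGR8 and was 55.2-fold higher in E3R than in E3. The maintenance methyltransferase gene Dnmt1 was 2.72-fold and its partner gene Uhrf1 2.33-fold higher. Dnmt3b, which sets new methylation, went the other way, with 1963 in E3R, 14621 in E3 and 2099 in CGR8, and was 5.78-fold lower in E3R than in E3. Also lower was L3mbtl2, a gene of the motif-binding Polycomb complex, by 2.12-fold, although under 2-fold without background correction (log2 −0.76). Other genes of that complex, named after their values were seen, had log2 differences of 0.02 for E2f6, 0.05 for Max and 0.19 for Pcgf6. Also listed were Tfdp1 at −0.58, Ring1 at −0.21 and Wdr5 at 0.49, so the complex is not described by its unchanged genes alone. By its brightest probe Rnf2 was detected on no array, and Cbx3 was detected in CGR8 alone, at 106.0. Among the methylation enzymes Dnmt3a was detected on no array by its brightest probe, and Tet1 and Tet2 had no probe. Mga was detected in E3R at 108.4 and in CGR8 at 110.8 but not in E3 at 87.8, and was higher in E3R than in E3 by at least 0.77 on the log2 scale. Uhrf1 came out just under 2-fold with scaling to a common median (0.97). In E3R against CGR8, 0 of 18 passed 2-fold in either direction, where 1.81% of all genes were higher and 1.54% lower. In E3 against CGR8, Dnmt3b at 2.74, Ehmt1 at 1.08 and L3mbtl2 at 1.03 on the log2 scale were higher in E3, and Dnmt3l at −6.49, Uhrf1 at −1.46 and Dnmt1 at −1.27 were lower. Ehmt1 was under 2-fold by the mean of its probes (0.33) and without background correction (0.96), and so was L3mbtl2 if background was left in (0.73) or if the offset was 50 (0.85).

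Other germline genes outside the list, 53 in number with 36 on the array, gave a more mixed picture. In E3R against E3, 8 of 16 with a value were higher and 2 lower by 2-fold or more, with a median of 1.01. Over all genes 12.7% were higher and 12.4% lower, so the count of lower genes lies near the share of all genes. Of these 16 values 9 were bounds. A gene detected in E3R alone could only count as higher, and a gene detected in E3 alone only as lower. Tfap2c, a transcription factor of primordial germ cells and trophoblast, was 30.9-fold higher in E3R. Tex13b was at least 5.70-fold higher, but 2-fold by the mean of its probes (log2 1.00), the helicase gene D1Pas1 at least 5.11-fold, Dppa3 4.19-fold and Tdrd12, of the piRNA pathway, 3.58-fold higher. Ddx25, a testis RNA helicase gene, was 10.7-fold lower in E3R. Thus not all of these other germline genes were higher in E3R. In E3R against CGR8, Dppa3 at 3.46-fold and Tdrd12 at 2.26-fold were the 2 of 15 that passed 2-fold upward, and 0 were lower. Over all genes 1.81% were higher and 1.54% lower. Tdrd12 was under 2-fold without background correction (0.82).

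Markers of other cell types in which some of these genes are active were measured on the same arrays. Of 11 Sertoli and Leydig cell markers of the testis, 0 were detected in E3R, 1 in E3, which was Cldn11, and 0 in CGR8, with summed raw signals of 867 in E3R, 1005 in E3 and 934 in CGR8. Of 10 trophoblast markers, where Rhox6 and Rhox9 are also active, 0 were detected in E3R, 1 in E3 and 3 in CGR8, with sums of 821 in E3R, 845 in E3 and 945 in CGR8, and Elf5, Hand1 and Tpbpa were detected nowhere. Those detected in CGR8 were Cdx2 at 110.7, Eomes at 107.9 and Gata3 at 109.2, all near the detection limit, and the one detected in E3 was Krt7 at 96.7. Of 12 markers of extraembryonic endoderm, which also expresses Rhox5, 5 were detected in E3R, 5 in E3 and 6 in CGR8, with summed raw signals of 1673 in E3R, 1312 in E3 and 3147 in CGR8. Of the 5 with a value, 3 were higher and 1 lower by 2-fold or more in E3R against E3. Over all genes 12.7% were higher and 12.4% lower. Lama1, a laminin gene, had 445 in E3R, 96.1 in E3 and 999.8 in CGR8 and was 14.6-fold higher in E3R than in E3. The transcription factor gene Gata6 had 239 in E3R, 120.5 in E3 and 601 in CGR8 (3.73-fold higher in E3R than in E3), and Dab2 had 132 in E3R, 102.3 in E3 and 358 in CGR8 (2.17-fold, but log2 0.49 without background correction). These 3 genes and Rhox5 had the same order of cultures, highest in CGR8 and lowest in E3. That order is not particular to Rhox5, since Dazl, Asz1, Smc1b, Taf7l, Rhox9, Tuba3a, Tuba3b and Xlr4a had it too. Col4a1, a basement membrane collagen gene, was 2.34-fold lower in E3R than in E3. Sox17, Sox7 and Gata4 were detected on none of the arrays. The part of such cells in the value of Rhox5 was not tested.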

How the data were processed

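RNA of 3 mouse cultures was measured on 3 bead arrays, 1 per group. For each probe the authors deposited a raw intensity, its bead standard error and its detection p-value, made with BeadStudio per the submitters' processing notes. A further deposited table gives processed intensity per probe, with a normalization that the sources used here do not name. It lacks values for 13113 to 13115 of 25697 probes, which were set to its lowest value of 8, and it served as an alternative, beside no background correction, an offset of 50, median scaling, other detection rules, updated symbols, means over probes and a 3-fold limit.

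Raw signals were normalized with neqc of limma 3.58.1 (R 4.3.3, offset 16, background inferred from detection p-values). A check on simulated data raised only genes well above background, so differences near background were not checked. Python 3.11.15 with pandas 2.3.3 and numpy 2.4.6 did the rest. A gene was taken from its brightest probe by mean log2 signal. Detection was at a p-value under 0.01. An undetected probe entered at the lowest detected signal of its array (log2 5.06 for E3R, 4.87 for E3, 5.10 for CGR8) or its own signal if higher. Genes were counted at 2-fold or more. All germline genes were named, and of other lists up to 6 genes past 2-fold. Members and lists were chosen with earlier results of these data known. The number of arrays limits the precision, and no p-value between groups is given.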

Additional observations from a re-analysis of the deposited data

How the results depend on the processing

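With 1 array per culture no replicate could be left out. The median log2 difference of the germline genes kept its sign in each comparison under every alternative that gave a median. Counts were compared by size only, not by direction. In E3R against E3 the 15 higher genes were 5 when detection on both arrays was required; Tdrkh was no longer counted as lower (0 genes) without background correction, with an offset of 50, with detection on both arrays and at 3-fold. The median of 2.14 was 1.03 without background correction, 1.36 with the offset, 3.08 with the authors' processed values, 3.33 with detection on both arrays and 0.50 over all 38 genes with no detection filter. In E3R against CGR8 the 2 higher genes were 0 without background correction, with the offset, at 3-fold and without the chromosome 14 members (an alternative added after the data were seen, which leaves out both genes counted and so must give 0), and 1 with median scaling. Lower genes there numbered 1 in place of 0 with median scaling, with the authors' values, at a detection p-value under 0.05 and with no filter. In E3 against CGR8 the 1 higher gene was lost (0) without background correction, with the offset, with detection on both arrays and at 3-fold, and the 13 lower genes were 5 with detection on both arrays. The median of −2.61 was −1.36 without background correction, −1.75 with the offset, −3.59 with the authors' values, −1.20 at a detection p-value under 0.05, −3.94 with detection on both arrays and −0.69 with no filter. Signals close to background limit all bounds.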

Other observations

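Germline genes just below the detection limit were unevenly spread over the arrays. At a detection p-value from 0.01 to 0.05 lay 2 of 19 undetected members in E3R (Ddx4 and Tdrd1), 1 of 31 in E3 (Xlr4a) and 7 of 21 in CGR8 (Ddx4, Nanos2, Rhox6, Stk31, Stra8, Tdrd1 and Tex11). These shares of 10.5%, 3.23% and 33.3% compare with 9.40%, 12.2% and 12.1% of all undetected genes on the E3R, E3 and CGR8 arrays. With detection at a p-value under 0.05 the members detected numbered 21 in E3R, 8 in E3 and 24 in CGR8.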
